A study of Mus musculus with 2 samples.

Results

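The genes described here make cholesterol and fatty acids or control that synthesis. The list holds 36 genes, grouped by known function, and was drawn up with earlier results of these data known. Each was represented by the probe set annotated to it alone that had the highest mean signal over both arrays. A probe set was found for 35 of the 36, out of 18193 named genes on the array, and Acat2, the cytosolic acetyl-CoA acetyltransferase gene, had none under its symbol alone. All 35 passed the brightness limit, a mean signal of at least 22.2 (the median over all probe sets), which kept 11162 genes in total. In each of the 35, both signals also lay above the control floor of their array, the largest value that any of 27 bacterial control probe sets reached there, which was 14.8 for p27delta51 and 11.8 for wild type.

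RNA came from embryonic fibroblasts of the mouse (MEFs), which are connective tissue cells cultured from embryos, of 2 genotypes. One carried p27delta51, an allele of Cdkn1b known for removing the amino-terminal part of the p27 protein that binds and inhibits cyclin-dependent kinases, and the other was wild type. Both were grown in DMEM with 10% fetal bovine serum and then kept without serum for 72 h, so both groups share the serum-free medium. Each genotype was read on 1 array. How many embryos or cultures stand behind an array is not stated in the labels. Every value below therefore describes these 2 arrays, with no SD and no test between the genotypes, and the allele, the culture and the array cannot be told apart.

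Cells build cholesterol from acetyl-CoA through mevalonate, farnesyl diphosphate, squalene and a series of sterol rings. The transcription factors SREBP1 and SREBP2 are held in the endoplasmic reticulum membrane with the escort protein SCAP, and INSIG proteins retain that complex while sterols are plentiful. When sterols run low the factors are cut, enter the nucleus and activate genes of sterol and fatty acid synthesis. SREBP2 is known mainly for the sterol genes and SREBP1 mainly for the fatty acid genes.

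Cdkn1b was read by 2 probe sets on opposite sides, at signals of 1016 in p27delta51 and 542 in wild type for the brighter and 1.6 and 62.0 for the dimmer. Their positions with respect to the deletion are unknown here, so neither checks the allele. All 10 fibroblast markers were above the floor on both arrays, but they differed. Col1a1 was at 7275 in p27delta51 and 7569 in wild type and Vim at 11278 and 9670, whereas Dcn was at 21.3 against 2817, Thy1 at 18.6 against 279.0 and Pdgfra at 529.3 against 138.0. Xist, which is transcribed from the inactive X chromosome, read 875.9 against 25.8. Its other probe sets gave 536.3 against 0.5 and 114.8 against 2.0, below the floor in wild type. The sex of the cells behind each array therefore cannot be told apart from the genotype. All 18 probe sets for the hybridisation controls, labelled bacterial and phage RNAs added to the hybridisation mix, were brighter for p27delta51, by a median of 0.38 on the log2 scale.

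Most cholesterol and fatty acid synthesis genes had a higher signal in p27delta51, by small amounts. The median log2 difference, p27delta51 minus wild type, was 0.33 over the 35 genes and 0.079 over all kept genes. Of the 35, 28 were higher by any amount and 7 lower, while 55.6% of all kept genes were higher. The direction of the median depended on the scale. With both arrays centred on the hybridisation controls, a shift of all genes by 0.38, it was -0.0455 for the 35 genes and -0.30 for all kept genes, and 16 of the 35 were above 0. On that scale the medians of the SREBP control and transport genes described below turned to -0.10 and -0.14, and those of the early steps, ring steps and fatty acid genes were 0.21, 0.0021 and 0.10. In the deposited scale as in that one, the 35 genes lay 0.25 above the median of all kept genes.

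Large differences were few. Pmvk, Mvd, Fdps, Scd1 and Elovl6 were at least 2-fold higher in p27delta51, 5 of 35 genes or 14.3%, beside 10.8% of all kept genes. No member was at least 2-fold lower, beside 8.78% of all kept genes. Fdps lay just inside the 2-fold limit, at 2.001-fold, and Acss2 just outside, at 1.991-fold. At least 1.5-fold higher were 13 of 35 genes (37.1%), beside 21.7% of all kept genes. Abca1 alone was at least 1.5-fold lower, beside 15.9% of all kept genes. The quartiles of the log2 difference were 0.19 and 0.75 for the 35 genes and -0.33 and 0.51 for all kept genes.

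**Figure D1:**
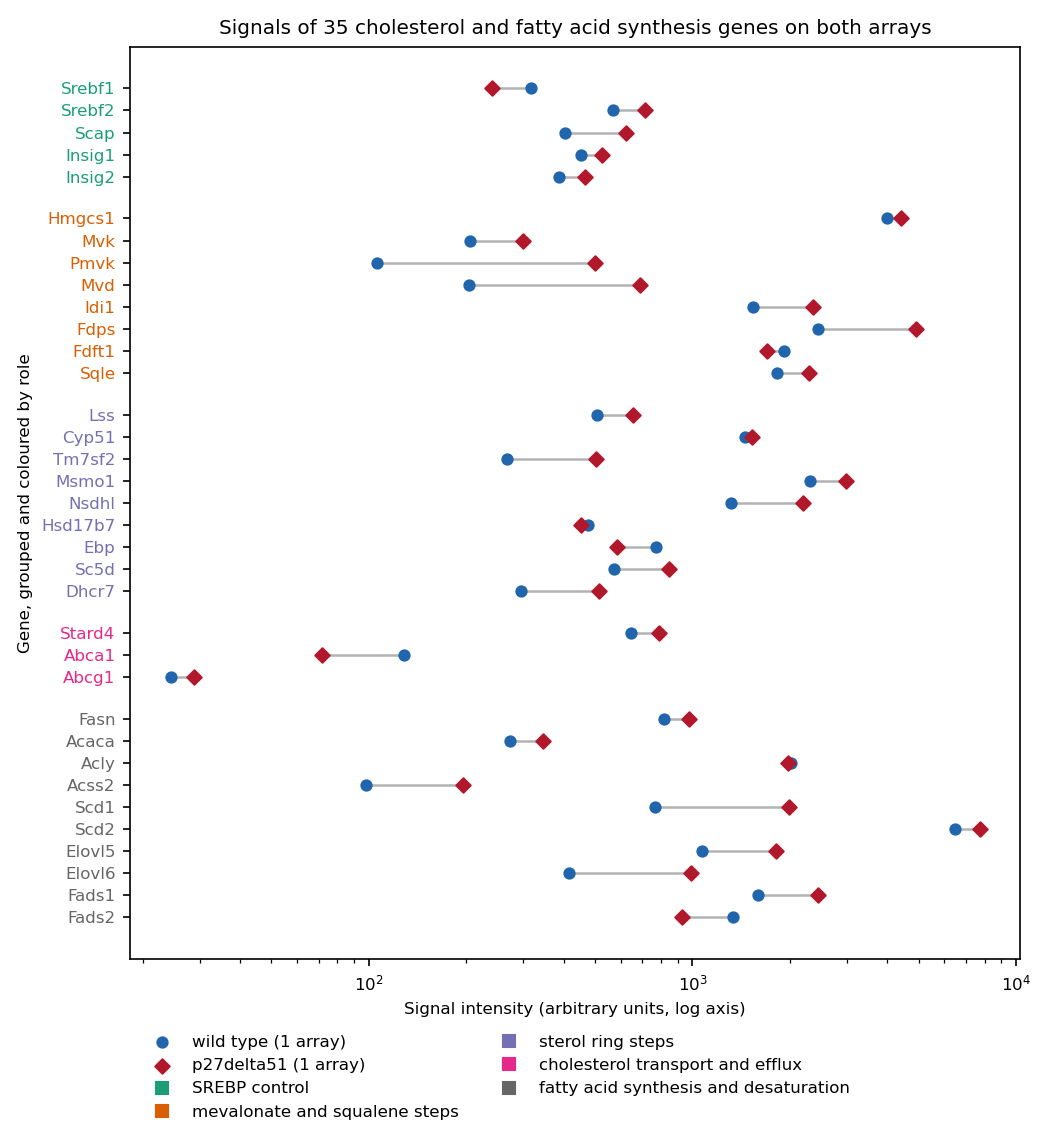
Signal intensity (arbitrary units, log axis) of each of the 35 genes in wild type (circles) and p27delta51 (diamonds), 1 array each, joined by a line and grouped by role. Pmvk, at 106.1 and 498.8, has the longest line, and 7 genes have the p27delta51 signal on the left. Signals of different genes come from different probe sets and cannot be compared with each other.

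The 5 genes that control SREBP activity differed by less than 2-fold. Srebf1, which encodes SREBP1, read 239.7 in p27delta51 against 316.0 in wild type, a log2 difference of -0.40. Srebf2, which encodes SREBP2, gave 712.4 against 567.9, a log2 difference of 0.33. Its second probe set was at 0.08. The genes of the 2 factors thus lay on opposite sides of 0, although both differences were smaller than 1.5-fold. Centred on the hybridisation controls, both were below 0, Srebf2 at -0.05 and Srebf1 at -0.77.

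Scap, the gene of the sterol-sensing escort, read 625.0 in p27delta51 against 403.6 in wild type, 1.55-fold higher. Insig1, a retention factor gene that is itself an SREBP target, gave 525.6 against 451.2. Insig2, its relative, gave 466.7 against 385.5, and 1 of its other bright probe sets lay at -0.17. Scap was the only one of the 5 beyond 1.5-fold.

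The early steps, from acetyl-CoA to squalene epoxide, held 3 of the 5 genes past 2-fold and had a median log2 difference of 0.58 over 8 genes. Hmgcs1, which makes HMG-CoA, read 4424 in p27delta51 against 3978 in wild type, and its 5 probe sets ranged from -0.12 to 0.16. Mvk, mevalonate kinase, gave 299.7 against 205.0, a log2 difference of 0.55. Pmvk, phosphomevalonate kinase and the next enzyme in the chain, gave 498.8 against 106.1, 4.70-fold higher and the highest difference among the 35. It was read by a single probe set, for which the authors' deposited table lists a log2 ratio of 2.0.

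Mvd, the decarboxylase that yields isopentenyl diphosphate, read 689.1 in p27delta51 against 204.2 in wild type, 3.37-fold higher. A second probe set for Mvd was also past 2-fold, at a log2 difference of 1.07. Idi1, the isomerase that follows, gave 2355 against 1539, with probe sets at 0.61 and 0.47. Fdps, which makes farnesyl diphosphate, gave 4904 against 2451. The 3 consecutive steps of Mvk, Pmvk and Mvd were thus all higher in p27delta51, by unequal amounts.

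The enzymes at the entry to squalene did not share those differences. Fdft1, squalene synthase, read 1700 in p27delta51 against 1912 in wild type, a log2 difference of -0.17, with its second bright probe set at -0.18. Sqle, squalene epoxidase, gave 2291 against 1823, a log2 difference of 0.33. Hmgcs1, Fdft1 and Sqle all lay within 1.5-fold, beside Pmvk and Mvd at over 3-fold.

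The sterol ring steps had a median log2 difference of 0.38 over 9 genes, 7 of them higher and none past 2-fold. Lss, which closes squalene epoxide into lanosterol, read 653.6 in p27delta51 against 505.5 in wild type, and its second bright probe set lay at 0.78. Cyp51, the lanosterol demethylase, gave 1523 against 1456, and its 3 probe sets ran from -0.16 to 0.53. Tm7sf2, a sterol ring reductase, gave 502.2 against 267.3, 1.88-fold higher and the largest difference of this group. Its authors' deposited log2 ratio was 0.7.

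Msmo1, a sterol methyl oxidase, read 2990 in p27delta51 against 2301 in wild type, a log2 difference of 0.38. Nsdhl, which acts with it in removing ring methyl groups, gave 2190 against 1318, 1.66-fold higher. Hsd17b7, the ketosterol reductase of the same complex, gave 454.0 against 476.6, and its probe sets lay on both sides of 0. Members of 1 enzyme complex therefore did not share a single difference.

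Ebp, the sterol isomerase, read 586.0 in p27delta51 against 772.6 in wild type, a log2 difference of -0.40. Sc5d, a sterol desaturase, gave 844.5 against 573.8, but its 3 bright probe sets ran from -0.55 to 0.56. Dhcr7, the reductase that ends one route to cholesterol, gave 513.3 against 295.8, 1.74-fold higher. Nsdhl and Ebp, both on the X chromosome, lay on opposite sides of 0, and the 355 kept X-linked genes had a median of 0.19.

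Transport genes split on the deposited scale, while centred on the hybridisation controls all 3 were lower, Stard4 at -0.09, Abcg1 at -0.14 and Abca1 at -1.22. Stard4, which encodes a sterol carrier of the cytosol, read 787.0 in p27delta51 against 647.1 in wild type, and all 3 of its probe sets were between 0.09 and 0.28. Abca1, the cholesterol exporter and a target of the LXR receptors, gave 71.7 against 128.8, 1.80-fold lower and the lowest of the 35. Its other probe sets, which missed the brightness limit, were lower as well, at -1.35 and -0.92. Both had p27delta51 signals below the control floor, and the authors' deposited table calls both unchanged. Abcg1, another LXR-controlled exporter, gave 28.8 against 24.4, close to the control floor, so its difference is approximate.

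Fatty acid genes had a median log2 difference of 0.47 over 10 genes, with Scd1 and Elovl6 past 2-fold. The genes that supply and join acetyl units differed little, apart from Acss2. Acly, ATP citrate lyase, read 1970 in p27delta51 against 2012 in wild type. Acaca, acetyl-CoA carboxylase, gave 344.1 against 273.7, and Fasn, fatty acid synthase, gave 974.2 against 813.8. Acss2, which makes acetyl-CoA from acetate, gave 195.3 against 98.1, and its second bright probe set was past 2-fold at 1.11.

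Both elongase genes of the list had higher signals. Elovl6, which lengthens saturated and monounsaturated chains, read 990.3 in p27delta51 against 415.6 in wild type, 2.38-fold higher, while its second bright probe set lay at 0.52. A dimmer probe set for Elovl6 gave 31.1 against 3.0, below the floor in wild type. Elovl5, which lengthens polyunsaturated chains, gave 1810 against 1069, with probe sets at 0.76 and 0.70.

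The desaturase genes differed within pairs of neighbours. Scd1, a stearoyl-CoA desaturase that makes monounsaturated chains, read 1987 in p27delta51 against 766.7 in wild type, 2.59-fold higher, and its second probe set lay at 1.33. Scd2, a second stearoyl-CoA desaturase and its neighbour on chromosome 19, gave 7709 against 6470, a log2 difference of 0.25, and its 3 probe sets ran from 0.09 to 0.25. Both probe sets of Scd1 were therefore above all 3 of Scd2.

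Fads1 and Fads2, adjacent genes on chromosome 19 for desaturases of polyunsaturated chains, lay on opposite sides. Fads2 read 928.1 in p27delta51 against 1335 in wild type, and its 3 bright probe sets were all lower, from -0.70 to -0.52. Fads1 gave 2448 against 1595, a log2 difference of 0.62, but a dimmer probe set gave 32.8 against 88.5, at -1.43. With the mean of its bright probe sets Fads1 was at -0.41, so its direction depends on the probe set, while that of Fads2 does not.

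**Figure D2:**
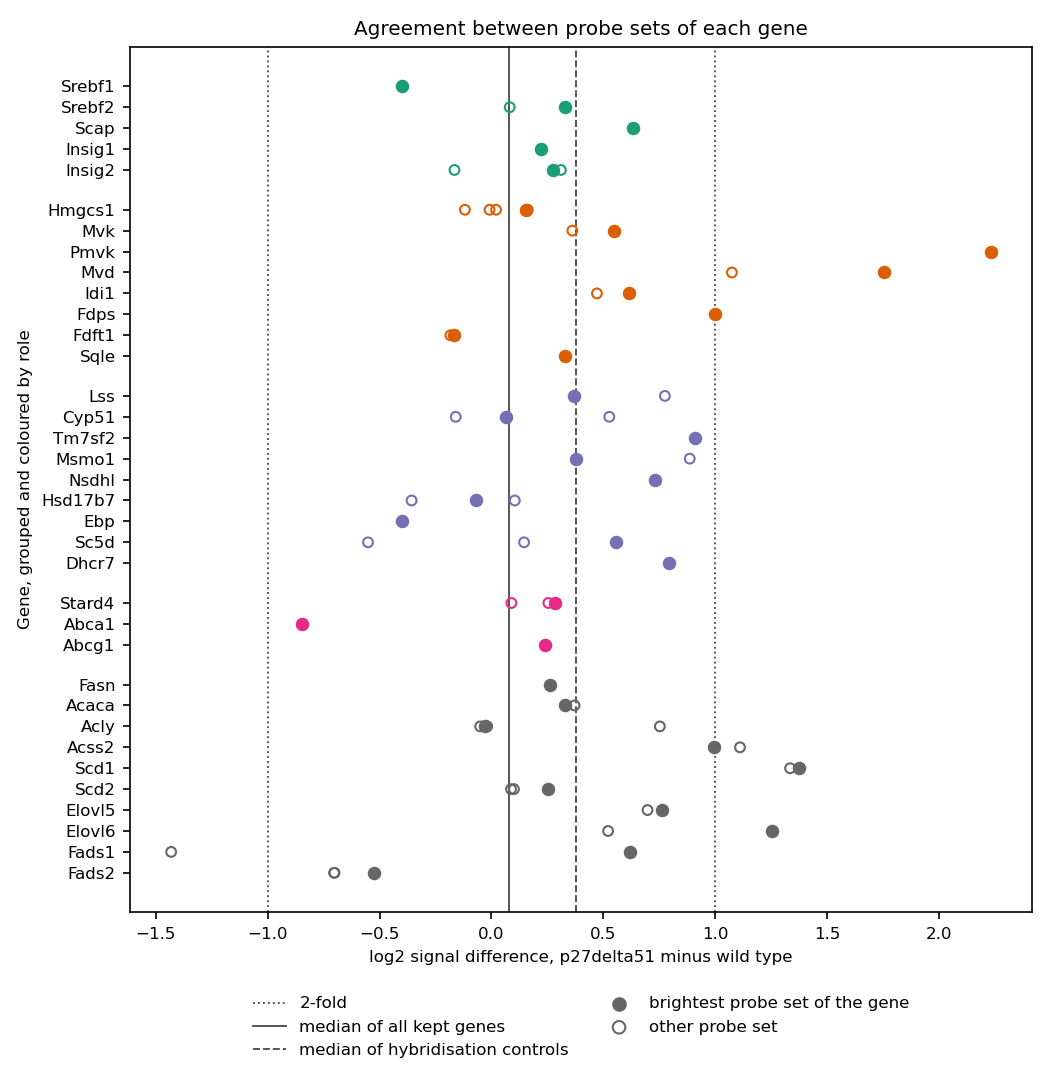
The log2 signal difference of every probe set above the brightness limit for each of the 35 genes, with the brightest probe set filled and others open. Dotted lines mark 2-fold, the solid line the median of all kept genes (0.079) and the dashed line the median of the hybridisation controls (0.38). Both probe sets of Mvd and of Scd1 lie past 2-fold, whereas those of Fads1 lie at 0.62 and -1.43.

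Repeat readings of a gene came only from its probe sets, which are not replicates of a genotype. How far their spread is technical was not tested. More than 1 bright probe set was present for 22 members, and in 15 of these every one lay on the same side of 0. The other 7 were Insig2, Hmgcs1, Cyp51, Hsd17b7, Sc5d, Acly and Fads1. The SD between bright probe sets of a gene had a median of 0.15 over these members and 0.23 over 5316 genes. Names of the chosen probe sets for Mvd and Lss end in _s_at, and for Hmgcs1, Fdft1 and Hsd17b7 in _x_at, which by the manufacturer's naming marks probes that can match transcripts of other genes.

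The authors' deposited table gives a change call for each probe set, which compares these 2 arrays and not the genotypes. There, 21 of the 35 chosen probe sets (60.0%) carried an increase or marginal increase call, beside 27.3% of all kept genes. All kept genes include many dimmer than these members, and the share of calls at matched signal was not taken. A decrease call was carried by 4 members, Srebf1, Ebp, Abca1 and Fads2, beside 20.6% with a decrease or marginal decrease call among all kept genes. Mvk and Srebf2 were among the members with an increase call, and Insig1, Hmgcs1 and Cyp51 among those called unchanged.

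Position on the chromosomes went with some of the larger differences. Pmvk, Fdps and Elovl6, 3 of the 5 genes past 2-fold, are the only members on chromosome 3. The 550 kept genes of that chromosome had a median log2 difference of 0.41, the highest of the 20 chromosomes with at least 50 kept genes, and a share of 20.2% was at least 2-fold higher. The 20 kept genes nearest to Pmvk in gene order had a median of 0.42, with 2 of them at least 2-fold higher, and those around Fdps a median of 0.43, with 4 at least 2-fold higher. Pmvk thus stood above each of its 20 neighbours, whose highest value was 1.18, while Fdps did not, with neighbours up to 1.27. Nor did Elovl6, whose 20 neighbours ran from -5.70 to 2.18, with 3 past 2-fold in each direction. Off chromosome 3, the 20 neighbours of Scd1 had a median of 0.33 and reached 1.76, and those of Mvd 0.18 and 2.35. Neighbours of Fads1 and Fads2, on chromosome 19, had medians of 0.43 and 0.48, so higher neighbours were not particular to chromosome 3. Among the 32 members on other chromosomes, Mvd and Scd1 were past 2-fold (6.25%), beside 10.3% of all kept genes off chromosome 3, and the median was 0.33. The part of chromosomal position in these differences was not tested.

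**Figure D3:**
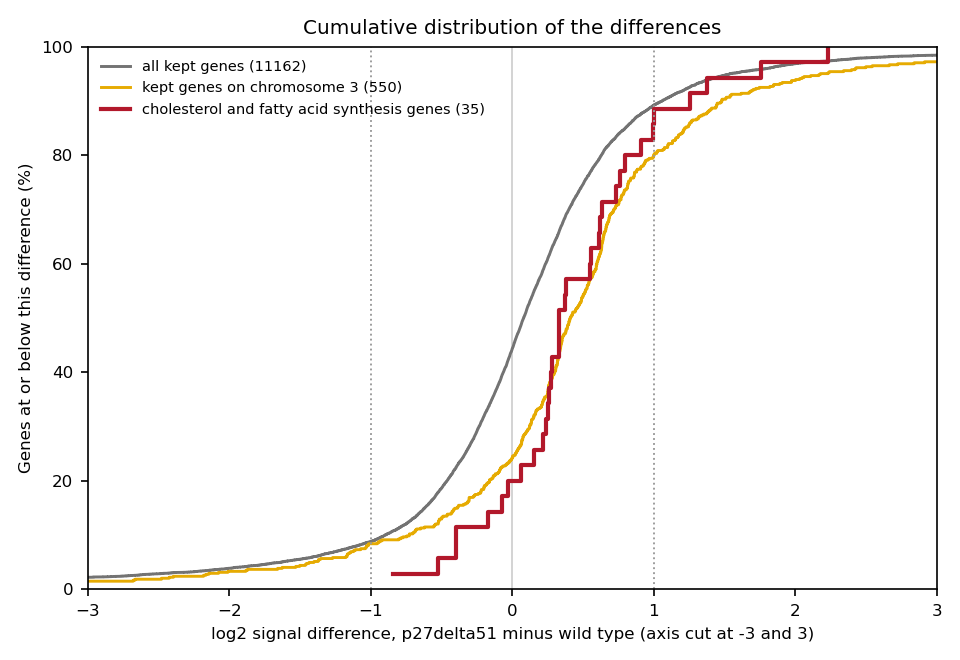
Cumulative share of genes (percent) at or below each log2 signal difference, for the 35 genes, the 550 kept genes of chromosome 3 and all 11162 kept genes. The curve of the 35 genes crosses 50% at 0.33, between 0.079 for all kept genes and 0.41 for chromosome 3, and has no gene at or below -1. Centred on the hybridisation controls, all 3 curves would move left by 0.38.

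Promoter sequences are shown for the members past 2-fold and the 2 lowest members that RefSeq's promoter table (GRCm38.p6) holds. Hmgcs1 is shown as well, the one member among those searched with a sterol regulatory element core. Each window runs 5′ to 3′ in the direction of transcription, from 250 bases before to 50 bases after a transcript start. Windows were found for 28 of the 36 genes. Fdps, Fdft1, Sqle, Stard4, Abcg1, Scd1, Scd2 and Fads1 had none and were not searched. Searched on both strands were the sterol regulatory element core TCACNCCAC, where SREBPs are known to bind, the NF-Y box CCAAT, bound by a factor known to act beside SREBPs, and the GC box CCGCCC. Capitals mark matches to the sterol element core or the NF-Y box (ATTGG on the other strand). Of 2 windows for Pmvk the upstream one is shown, and no marked matches overlap.
Pmvk, chr3:89454291-89454590, plus strand: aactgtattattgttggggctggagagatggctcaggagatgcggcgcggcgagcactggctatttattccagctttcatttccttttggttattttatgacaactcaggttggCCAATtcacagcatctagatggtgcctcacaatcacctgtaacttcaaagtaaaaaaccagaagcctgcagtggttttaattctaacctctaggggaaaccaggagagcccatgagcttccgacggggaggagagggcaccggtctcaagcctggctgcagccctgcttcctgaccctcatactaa
Mvd, chr8:122443373-122443672, minus strand: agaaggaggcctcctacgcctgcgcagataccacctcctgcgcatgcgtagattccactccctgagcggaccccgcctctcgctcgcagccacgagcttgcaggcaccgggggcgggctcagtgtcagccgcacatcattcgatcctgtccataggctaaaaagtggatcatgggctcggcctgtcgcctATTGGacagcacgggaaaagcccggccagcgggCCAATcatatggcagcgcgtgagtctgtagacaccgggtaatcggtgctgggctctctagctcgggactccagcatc
Elovl6, chr3:129532136-129532435, plus strand: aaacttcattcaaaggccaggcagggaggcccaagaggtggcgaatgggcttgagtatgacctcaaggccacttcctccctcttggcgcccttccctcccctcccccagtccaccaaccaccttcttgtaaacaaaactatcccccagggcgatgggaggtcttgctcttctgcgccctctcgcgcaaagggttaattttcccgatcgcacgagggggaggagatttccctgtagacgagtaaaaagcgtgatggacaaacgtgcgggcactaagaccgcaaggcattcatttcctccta
Hmgcs1, chr13:119690101-119690400, plus strand: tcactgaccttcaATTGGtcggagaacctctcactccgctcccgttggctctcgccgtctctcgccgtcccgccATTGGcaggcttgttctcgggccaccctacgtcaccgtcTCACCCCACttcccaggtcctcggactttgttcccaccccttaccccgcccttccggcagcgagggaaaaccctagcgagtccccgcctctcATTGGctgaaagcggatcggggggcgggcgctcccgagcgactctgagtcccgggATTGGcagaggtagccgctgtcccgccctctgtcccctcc
Fads2, chr19:10101454-10101753, minus strand: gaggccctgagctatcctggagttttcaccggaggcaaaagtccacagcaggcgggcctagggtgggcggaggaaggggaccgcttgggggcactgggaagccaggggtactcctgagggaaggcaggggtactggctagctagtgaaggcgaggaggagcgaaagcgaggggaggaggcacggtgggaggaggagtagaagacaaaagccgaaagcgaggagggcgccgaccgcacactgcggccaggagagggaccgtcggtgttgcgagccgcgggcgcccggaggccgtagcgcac
Abca1, chr4:53159846-53160145, minus strand: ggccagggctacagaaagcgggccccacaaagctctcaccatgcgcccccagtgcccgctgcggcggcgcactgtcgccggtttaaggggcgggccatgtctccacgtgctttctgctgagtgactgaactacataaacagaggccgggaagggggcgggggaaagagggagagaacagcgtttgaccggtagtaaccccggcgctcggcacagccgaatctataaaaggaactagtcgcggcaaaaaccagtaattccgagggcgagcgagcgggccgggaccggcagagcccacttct

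In these windows Hmgcs1 held 1 sterol element core, 137 bases before the start, and 4 NF-Y boxes, the nearest upstream one 45 bases before the start. Mvd held NF-Y boxes 60 and 27 bases before the start, Pmvk 1 at 136 bases, and Elovl6, Fads2 and Abca1 none. The sterol element core was found in 1 of 35 windows of kept members (2.86%), beside 1.24% of all 32851 windows and 1.16% of windows of kept genes. The NF-Y box was found in 23 of the 35 (65.7%), beside 37.4% of all windows and 37.6% of windows of kept genes. The GC box was found in 26 of the 35 (74.3%), beside 35.7% and 63.4%.

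The 22 kept members with an NF-Y box in some window had a median log2 difference of 0.37 and the 5 without one 0.33. For the GC box the values were 0.35 for the 22 members with one and 0.76 for the 5 without. Hmgcs1, with the only sterol element core found, was at 0.15, and the 26 kept members searched without one had a median of 0.37. Those 26 include Pmvk and Elovl6, at 2.23 and 1.25, and Fads2 and Abca1, at -0.52 and -0.85. With 1 gene on one side, these values allow no comparison for that element. These are descriptions of letters in short windows and not of bound factors.

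Most lists of genes around the pathway had medians below those of the member roles. Genes for SREBP processing and sterol-regulated degradation had a median log2 difference of 0.09 over 12 kept genes, with 1 at least 2-fold higher, Erlin1, which encodes an endoplasmic reticulum membrane protein and read 429.2 in p27delta51 against 173.1 in wild type. The isoprenoid branch and prenylation genes, which use the farnesyl diphosphate that Fdps makes, had a median of 0.03 over 12 genes and none past 2-fold. Genes of NADPH and citrate supply had a median of 0.12 over 7 genes, again with none past 2-fold. The median of all kept genes was 0.079.

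LXR factors and targets had a median of 0.06 over 8 genes, with 2 at least 2-fold higher. Mylip, an LXR target that promotes degradation of lipoprotein receptors, read 1192 in p27delta51 against 317.7 in wild type, 3.75-fold higher and so opposite in side to Abca1. Genes of cholesterol uptake, storage and movement had a median of 0.10 over 13 genes, with 1 past 2-fold on each side. Lrp1, a lipoprotein receptor gene, was 2.22-fold higher, and Cav1, the gene of the caveolar protein caveolin 1, gave 2725 against 6111, 2.24-fold lower.

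Other fatty acid enzymes and partners had a median of 0.31 over 14 genes. Hacd2, a dehydratase of the elongation cycle that Elovl5 and Elovl6 begin, was 2.00-fold higher, at 1137 against 567.7. Hacd3, another dehydratase of that cycle, named here for comparison after its values were seen, read 470.7 against 856.2, 1.82-fold lower. Fatty acid oxidation genes had a median of 0.43 over 15 genes and glycerolipid synthesis genes -0.02 over 16. Across all 8 surrounding lists the medians thus ran from -0.02 to 0.43, and those of the 5 member roles from 0.24 to 0.58. Only other fatty acid enzymes and fatty acid oxidation lay within the range of the roles. The remaining surrounding medians, from -0.02 to 0.12, were below all 5 roles. Centred on the hybridisation controls, 7 of the 8 surrounding medians lay below 0, and that of fatty acid oxidation was 0.05.

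**Figure D4:**
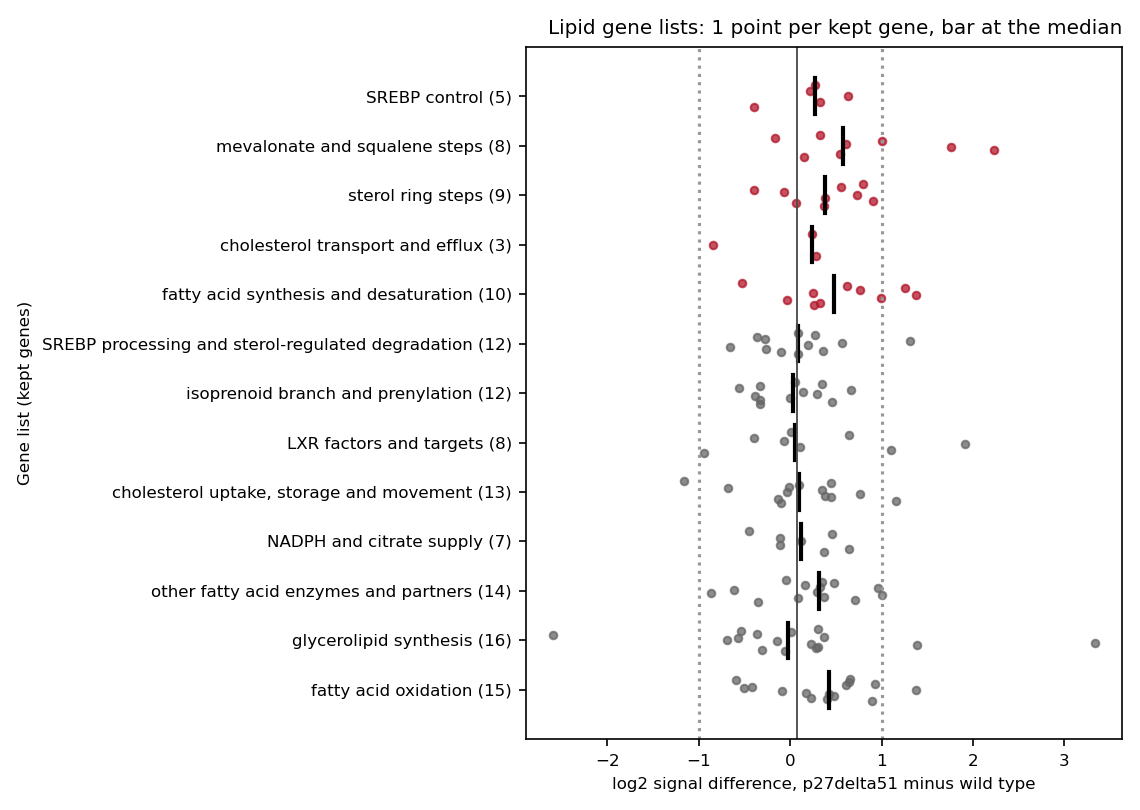
The log2 signal difference of each kept gene (1 point per gene) by list, with members of the cholesterol and fatty acid genes in red by role, other lipid lists in grey and a black bar at each median. The thin line marks the median of all kept genes (0.079) and dotted lines 2-fold. The mevalonate and squalene steps have the rightmost bar, at 0.58, and with centring on the hybridisation controls that bar would lie at 0.21.

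Adipocytes make fatty acids at high levels, so their markers were read beside the fatty acid genes. Of 10 markers, 8 were on the array and 3 were kept. Cebpa read 158.5 in p27delta51 against 40.6 in wild type, and Fabp4 82.0 against 32.4. Pparg gave 1.5 against 48.9, at least 3.30-fold lower, and Adipoq, the adiponectin gene, gave 5.0 against 14.9, below the floor in p27delta51. Retn, the resistin gene, gave 4.5 against 16.8, also below the floor in p27delta51. Lpl, Lep and Cidec were at or below the floor on both arrays, and the summed signal of the 8 markers was 268.7 in p27delta51 and 164.2 in wild type.

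Few markers of other cell types were kept. Of 8 macrophage markers 3 were kept, and 1 of them was higher in p27delta51, Cd14 at 86.9 against 32.2. Csf1r, at 56.5 against 65.0, and Lyz2, at 19.7 against 30.4, were lower. The summed signal over all 8 was 217.4 in p27delta51 and 172.0 in wild type. Of 7 epithelial markers 2 were kept and lay on opposite sides, Krt19 at 13.7 against 176.9, at least 12.0-fold lower in p27delta51, and Epcam at 60.7 against 26.4. The 7 summed to 138.8 against 280.8, and none of 6 endothelial markers was kept. The part of other cell types in the differences was not tested. In bulk RNA, fewer cells of a type and less RNA per cell cannot be told apart.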

How the data were processed

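Per the labels' protocols, biotin-labelled cRNA of each genotype went onto 1 Affymetrix array. RMA and affy are named, without a version, per the submitters' processing notes. The deposited value table holds linear signal intensity values for 45101 probe sets. With 2% cut off at each end, the mean of each array is 150.0, the form of MAS5 signals, and the labels do not say which program wrote them. The authors' other deposited table holds, per the file headers, a log2 ratio, a call of change and its p-value per probe set. The deposited p-value was not used.

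Probe sets were named through the supplied platform annotation, and gene identifiers gave current symbols from RefSeq's GRCm38.p6 table. A total of 34945 probe sets carried 1 symbol (34741 matched the gene table), 932 several and 9160 none, and 64 were controls. All sample columns were used. The log2 difference was taken per gene from the brightest probe set, with 0.1 in place of a signal of 0. Genes were kept by mean signal, and a fold of 2 was used as a description. The code was checked on simulated data with large planted shifts and little noise, which does not test how reliable the 2-fold calls are here. Every member was named. From the further lists, only the largest difference in each direction was named, and only if at least 2-fold. Hacd3 was an exception, named after its values were seen. The members and lists were chosen with earlier results of these data known. Cdkn1b, Xist and marker genes were named as checks. Work was done in Python 3.11.15 with pandas 2.3.3 and statsmodels 0.14.6. The number of arrays limits the precision. Alternatives covered the filter, scaling, probe-set choice, pseudocount, floor, fold and the authors' ratio.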

Additional observations from a re-analysis of the deposited data

How the results depend on the processing

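No paired analysis was possible because each genotype had 1 array. Values were held to the median SD between probe sets (0.23) and counts to a factor of 1.5. Under the 10 alternatives planned for all results, the median of the 35 genes ran from 0.25 to 0.40, and no role median moved by more than that SD. The count at least 2-fold higher ran from 4 to 6 under these, and with a 1.5-fold threshold it was 13 and with a 3-fold threshold 2. The count lower was 1, Abca1, with loess (-1.04) and with a 1.5-fold threshold, and 0 under the other planned settings. The remaining settings were added after seeing the data. Without the members on chromosome 3 the count higher was 2. With centring on the hybridisation controls it was 2 and the count lower 1. That setting put the median of the 35 genes at -0.0455 and those of SREBP control, the early steps, the ring steps, transport and fatty acid genes at -0.10, 0.21, 0.0021, -0.14 and 0.10, by its construction as a shift of all genes by 0.38. Of 382 values of single members under all settings, 43 moved by more than the SD, 35 of them under that shift. For genes past 2-fold 0 of the 55 values changed side, which says little, as these genes were chosen for lying far from 0. Members closer to 0 did change side. Fads1 went from 0.62 to -0.41 with the mean of all bright probe sets. Under the shift 16 of the 35 members were above 0, beside 28 on the deposited scale.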

Other observations

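Of the 15 kept genes of fatty acid oxidation, which break down what the synthesis genes build, 11 were higher in p27delta51. Hadh, a dehydrogenase of the mitochondrial oxidation cycle, read 2772 in p27delta51 against 1070 in wild type, 2.59-fold higher. It also lies on chromosome 3, among the 20 kept genes nearest to Elovl6, which had a median of 0.51.

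Glycerolipid synthesis genes had the widest range among the lipid lists. Lpin3, a phosphatidate phosphatase gene, read 50.4 in p27delta51 against 5.0 in wild type, at least 4.27-fold higher. Cds1, which makes CDP-diacylglycerol, gave 13.3 against 80.1, at least 5.41-fold lower. For both genes the dimmer signal was at or below the control floor.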
